A study of Mus musculus with 15 samples.

Results

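The circadian clock genes described here are 10 rows of a count table of mouse cerebellum: Arntl, Per1, Per2, Per3, Cry1, Cry2, Nr1d1, Nr1d2, Dbp and Bhlhe41. They were taken by gene symbol from a table of 24420 genes, and all 10 were among the 16808 genes that passed the low-count filter. The study sequenced cerebellar RNA of 3 groups of mice with 5 libraries each. WT mice are labelled strain FVB/nJ and 9 weeks old. The 82Q mice carry Atxn1[82Q], a form of Atxn1 with an expanded glutamine tract such as causes spinocerebellar ataxia, and are also labelled FVB/nJ and 9 weeks old. The 82Q_M120A mice carry Atxn1[82Q] together with CalphaLoxM120A, an altered form of the catalytic subunit of protein kinase A, and their strain label is a mix, C57BL/6J:FVB/nJ, with an age of 8 weeks. The series text calls Atxn1[82Q] a knockin; the sources used here do not say which cells express either allele and name no Cre driver. No group carries the kinase allele alone, so in every comparison with 82Q_M120A the kinase allele, the strain and the age cannot be told apart. The labels give no time of day at which tissue was taken. They also do not say whether the 5 samples of a group are 5 animals, so p-values reflect only how far these libraries spread, which may be technical.

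The circadian clock is a feedback loop of transcription that runs in nearly every cell of the body, the cerebellum included, with a period of about a day. Arntl, whose protein is also called BMAL1, pairs with the product of Clock or Npas2 and binds E-box sequences near the Per and Cry genes, the Nr1d genes, Dbp and Bhlhe41. The PER and CRY proteins then block that pair, and the NR1D proteins, also called REV-ERB, repress Arntl. Transcripts of Nr1d1, Dbp, Per1 and Per3 peak in the day to early evening, Per2 and Cry2 slightly later, Cry1 in the night, and Arntl, Npas2 and Clock around its end. A difference in the time of collection can therefore move Arntl, Npas2 and Clock one way and the day genes the other way. The day genes do not all peak at the same hour, so a count or median over them can miss a small shift. The question put to these data was whether the 3 groups differ in such opposite directions.

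Promoter windows of the members were searched for exact matches to the textbook elements of the loop. Sequences are printed for Bhlhe41 and Nr1d1, which were called in 82Q_M120A, and for Per1, Cry1 and Per3, which were not, so that the elements can be read beside both. Windows of 300 bases, from 250 before to 50 after each transcript start, were taken from RefSeq on GRCm38.p6, and 9 of the 10 members had one. Per2 was not matched. In each line the motif is in capitals and the rest of the sequence is upstream of a RefSeq start and outside annotated exons. The Per1 stretch lies within the annotated span of that gene (chr11:69095217-69109960, plus strand), so it precedes an internal start. The E-box CACGTG was found in Bhlhe41, Cry1 and Per1, against 7.15% of 32851 windows of all genes. The variant CACGTT, read on either strand and so also as AACGTG, was found in Cry1, Cry2 and Nr1d1, against 4.685% of windows. The D-box, TTATGTAA or TTACGTAA, to which the DBP protein binds, was found in Per3 alone of the matched members, against 1.056% of windows. The core TGACG of the cAMP response element, through which protein kinase A acts on transcription, was found in Cry1, Cry2 and Per1, against 20.812% of windows, and the full element TGACGTCA in none of the 9. A match is a description of the letters in these windows and not a measured binding site.
Bhlhe41 (chr6:145865559-145865613, minus strand): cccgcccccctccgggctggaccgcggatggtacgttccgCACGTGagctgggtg
Nr1d1 (chr11:98775378-98775445, minus strand): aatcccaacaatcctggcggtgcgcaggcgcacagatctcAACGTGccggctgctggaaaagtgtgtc
Per1 (chr11:69098743-69098828, plus strand): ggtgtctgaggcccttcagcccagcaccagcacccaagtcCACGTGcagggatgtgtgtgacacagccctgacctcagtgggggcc
Cry1 (chr10:85185069-85185173, minus strand): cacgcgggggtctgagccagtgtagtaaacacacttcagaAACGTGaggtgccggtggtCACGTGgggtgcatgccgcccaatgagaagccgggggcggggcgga
Per3 (chr4:151044776-151044910, minus strand): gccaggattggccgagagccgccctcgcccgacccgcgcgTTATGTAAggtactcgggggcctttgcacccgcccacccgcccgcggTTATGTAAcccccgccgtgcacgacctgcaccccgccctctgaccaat

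Depth ran from 38.3 M to 99.4 M counts per library (M, mega). Levels are in CPM, the counts of a gene per M counts of its library after scaling with TMM factors, and each gene is compared only with itself, since CPM does not correct for transcript length. The smallest count of any member in any library was 1474, for Arntl, where sampling of reads alone (the Poisson coefficient of variation) gives an error of 2.60%, so counting is not what sets the spread between libraries for these genes. All 10 cerebellar markers (Gabra6, Neurod1, Pcp2 and others) passed the filter, with a summed level of 6473 to 7960 CPM over all libraries. The 6 pineal markers, from the gland that makes melatonin at night, summed to 0.843 to 2.26 CPM, with 3 of them passing the filter. Of 5 blood markers, Hbb-bs, Hbb-bt, Hba-a1 and Hba-a2 were at 0 in all libraries. Libraries stood apart in RNA of the choroid plexus, the tissue that makes cerebrospinal fluid and borders the cerebellum: all 8 of its markers passed the filter, and their sum ran from 23.0 to 2817 CPM. At a marker score (mean log2 CPM) above 4, which was chosen after seeing the data, 4 of 5 WT, 2 of 5 82Q and 1 of 5 82Q_M120A libraries were rich in it. This imbalance lies in the same direction as the groups, and its part in the results was not tested. Where the score as a covariate changed a call of a clock gene, that is given beside the gene. Within the rich or the poor libraries, only 82Q against WT (rich) and 82Q_M120A against 82Q (poor) have more than 1 library in each group, and the other comparisons within these sets are given as values with no p. Libraries are numbered by column order within a group, since the columns carry no replicate number.

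**Figure D1:**
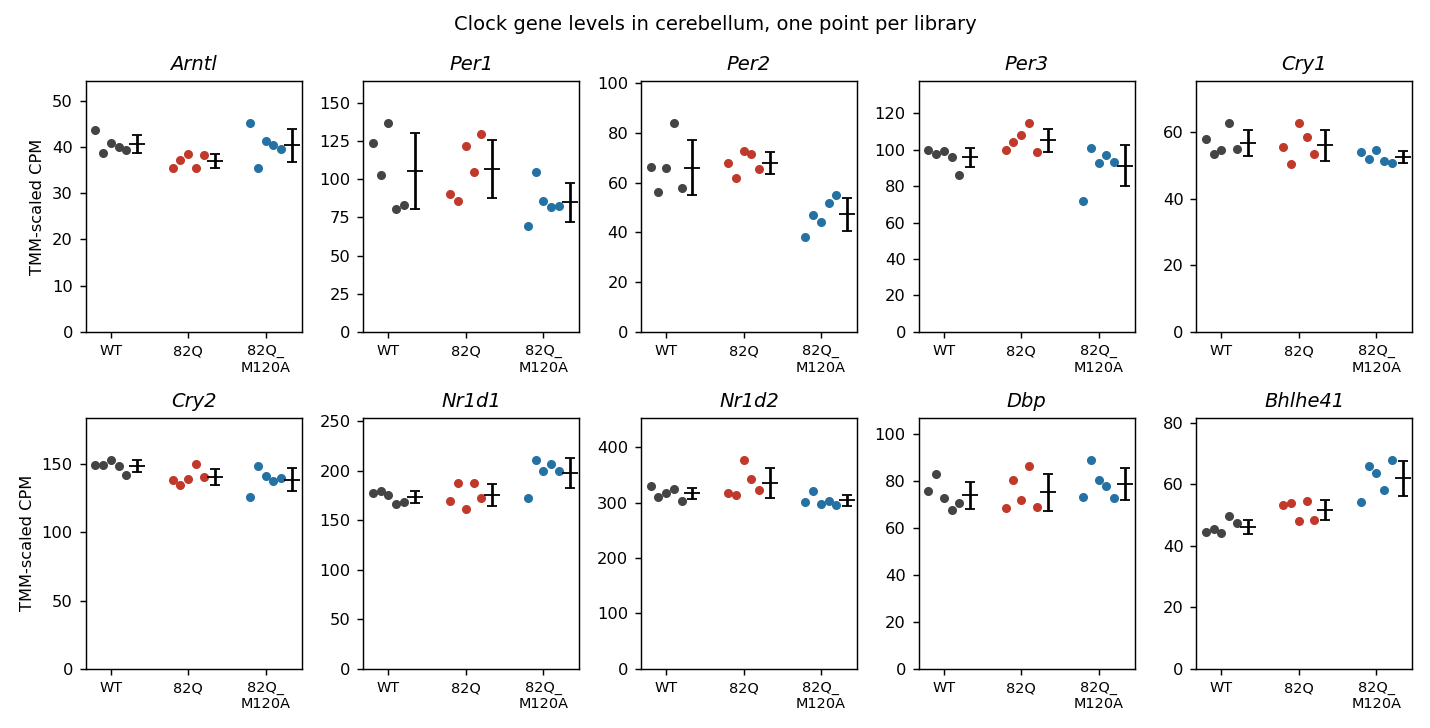
Level of each clock gene in TMM-scaled CPM (vertical axes, from 0) by group (horizontal axis), with 1 point per library and the mean ± SD (n = 5) at the right of each group. The Per2 points of 82Q_M120A (38.1 to 55.0 CPM) lie below all WT and 82Q points, the Bhlhe41 points of 82Q_M120A (54.3 to 68.0 CPM) lie above all WT points, and the Arntl points of the 3 groups stay between 35.4 and 45.3 CPM.

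Between 82Q and WT no clock gene passed the test. In edgeR's quasi-likelihood test with Benjamini-Hochberg adjustment over all tested genes, 0 of 10 members had an adjusted p under 0.05, against 18.7% of all tested genes (8.63% higher, 10.1% lower), and 2 had an unadjusted p under 0.05. DESeq2 and limma-voom also called 0. The median absolute log2 fold change was 0.06 over the members and 0.09 over all tested genes. Arntl and Bhlhe41 came nearest to a call, and they are the pair with unadjusted p under 0.05. With only these 2 groups in the fit, both passed the threshold, Arntl lower (-0.14, adjusted p = 0.0235) and Bhlhe41 higher (0.16, adjusted p = 0.0306).

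Arntl (chr7:113207465-113314126, mm10), the activator of the loop, stood at 43.8, 38.8, 40.9, 40.1 and 39.4 CPM in the WT libraries and at 35.6, 37.3, 38.5, 35.4 and 38.4 CPM in the 82Q libraries. Every 82Q library was below every WT library, although the nearest pair was only 38.5 and 38.8 CPM apart. The log2 fold change was -0.13 ± 0.05 (approximate SE, 95% interval -0.24 to -0.02, adjusted p = 0.0941, edgeR quasi-likelihood), and 1 of 10 members did not overlap between these groups, against 16.6% of tested genes. The 82Q_M120A libraries, at 45.3, 35.4, 41.4, 40.4 and 39.5 CPM, covered the whole range of both other groups, from nearly the lowest to the highest level measured. Against WT the difference was -0.01 ± 0.05 (interval -0.12 to 0.10, adjusted p = 0.938) and against 82Q 0.13 ± 0.05 (adjusted p = 0.108). The last value passed the threshold with the choroid plexus score as a covariate (0.16, adjusted p = 0.0300) and without library 82Q_M120A-2, which holds the lowest Arntl of its group (0.17, adjusted p = 0.0236).

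In 82Q_M120A the members did not move as one: Bhlhe41 and Nr1d1 rose, Per2 fell, and Arntl, Dbp, Per1, Per3, Cry1 and Cry2 did not pass the test against either other group. Against WT, 3 of 10 members were called, 2 higher and 1 lower, against 36.4% of all tested genes (18.6% higher, 17.8% lower). Against 82Q, 4 of 10 were called, 2 higher (Bhlhe41, Nr1d1) and 2 lower (Per2, Nr1d2), against 18.9% of all tested genes (10.3% higher, 8.63% lower). In absolute size the members' median log2 fold change was 0.11 against WT, beside 0.13 over all genes, and 0.16 against 82Q, beside 0.09. The comparisons of 82Q_M120A share its 5 libraries, so a gene called in both is not 2 independent results. In bulk tissue, a lower level per cell and fewer cells that express the gene cannot be told apart.

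**Figure D2:**
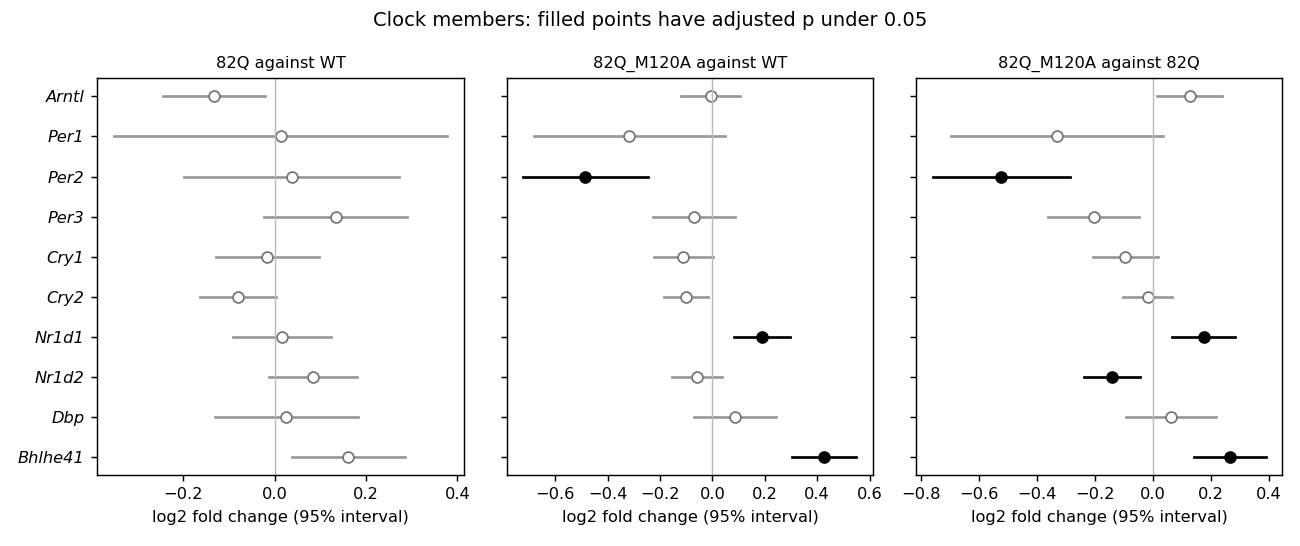
Log2 fold change with its 95% interval (horizontal axis) of each clock gene (vertical axis) in the 3 comparisons; filled points have an adjusted p under 0.05 (edgeR quasi-likelihood). No point is filled for 82Q against WT, and Per2 lies at the far left (-0.48 and -0.52) and Bhlhe41 at the far right (0.43 and 0.27) of the comparisons of 82Q_M120A with WT and with 82Q.

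Per2 (chr1:91415982-91459324), a period gene whose protein blocks the Arntl pair, was at 66.3, 56.4, 65.8, 84.0 and 57.8 CPM in WT and at 67.8, 61.9, 72.5, 71.5 and 65.6 CPM in 82Q. In 82Q_M120A it was at 38.1, 47.0, 44.3, 52.0 and 55.0 CPM, and its highest library was below the lowest of both other groups. The means were 66.0 ± 11 (SD, n = 5) in WT, 67.8 ± 4.35 in 82Q and 47.3 ± 6.62 in 82Q_M120A. Per2 therefore fell by 0.48 ± 0.11 on the log2 scale against WT, 1.40 times lower (adjusted p = 0.00332), and by 0.52 ± 0.11 against 82Q, 1.44 times lower (adjusted p = 0.00427, both from edgeR's quasi-likelihood test). Both calls held when any one library was left out, with values of -0.55 to -0.39 against WT and -0.59 to -0.45 against 82Q.

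With the choroid plexus score as a covariate the log2 fold change of Per2 was -0.68 against WT (adjusted p = 1.38e-05) and -0.65 against 82Q (adjusted p = 2.37e-05, edgeR quasi-likelihood). Among the poor libraries it was -0.51 against 82Q (adjusted p = 0.00178, 4 libraries against 3). The values from sets with 1 library in a group were -0.70 (rich) and -0.76 (poor) against WT and -0.74 (rich) against 82Q.

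Per1 (chr11:69095217-69109960), the period gene that also answers quickly to cAMP and calcium signals, varied most between libraries of one group. Its WT libraries were at 124, 103, 137, 80.5 and 83.2 CPM, its 82Q libraries at 90.3, 86.1, 122, 105 and 130 CPM and its 82Q_M120A libraries at 69.4, 105, 85.5, 81.5 and 82.7 CPM. The groups overlapped, and the coefficient of variation was 23.5% in WT, 17.9% in 82Q and 15.1% in 82Q_M120A. The mean of 84.8 ± 12.8 CPM in 82Q_M120A gave a log2 fold change of -0.32 ± 0.17 against WT (interval -0.68 to 0.05, adjusted p = 0.165) and -0.33 ± 0.17 against 82Q (adjusted p = 0.203). Against that spread, Per1 was not called in any comparison.

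Per3 (chr4:151003652-151044665), the third period gene, was at 99.7, 97.6, 99.1, 96.1 and 86.4 CPM in WT and at 99.9, 104, 108, 115 and 98.9 CPM in 82Q. In 82Q_M120A 1 library was at 72.1 CPM, far below the other 4 at 101, 92.9, 97.3 and 93.0 CPM. The log2 fold change of 82Q_M120A was -0.07 ± 0.07 against WT (adjusted p = 0.484) and -0.20 ± 0.07 against 82Q (adjusted p = 0.0643, edgeR quasi-likelihood). The latter passed the threshold in DESeq2 (-0.21, adjusted p = 0.0286) and with the choroid plexus score as a covariate (-0.27, adjusted p = 0.0121), and in the main test without WT-5 (adjusted p = 0.0497) or without 82Q_M120A-2 (adjusted p = 0.0301). Among the rich libraries, where 82Q_M120A has 1, the values were -0.41 against WT and -0.49 against 82Q.

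The cryptochromes, partners of the period proteins, had the smallest ratio of highest to lowest level among the members. Cry1 (chr10:85131700-85185064) stayed between 50.4 and 62.7 CPM and Cry2 (chr2:92403646-92434043) between 126 and 154 CPM over all 15 libraries, a ratio of 1.24 and 1.22. Within groups, the coefficient of variation of Cry1 was 6.64% in WT, 8.34% in 82Q and 3.17% in 82Q_M120A, so by that measure Cry1 was not among the least variable members in WT and 82Q. Cry2 was at 149, 150, 154, 149 and 142 CPM in WT, at 139, 135, 139, 150 and 141 CPM in 82Q and at 126, 149, 142, 138 and 140 CPM in 82Q_M120A. The groups overlapped, and 82Q_M120A against WT gave -0.10 ± 0.04 (adjusted p = 0.0574), which DESeq2 placed past the threshold (adjusted p = 0.0394). Cry1 gave -0.11 ± 0.05 in the same comparison (adjusted p = 0.112). With the choroid plexus score as a covariate, both were called lower, Cry1 at -0.17 (adjusted p = 0.0237) and Cry2 at -0.15 (adjusted p = 0.00913).

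Nr1d1 (chr11:98767932-98775333), which encodes the repressor of Arntl named REV-ERBα, was at 178, 179, 176, 166 and 169 CPM in WT and at 170, 187, 161, 187 and 172 CPM in 82Q. In 82Q_M120A it was at 173 CPM in 1 library and at 211, 200, 207 and 199 CPM in the others. The 4 high libraries lay above all of WT and 82Q, and the remaining one lay within both. Nr1d1 rose by 0.19 ± 0.05 on the log2 scale against WT (adjusted p = 0.00731, edgeR quasi-likelihood) and by 0.17 ± 0.05 against 82Q (adjusted p = 0.0236). The low library, 82Q_M120A-1, is the one of its group that is rich in choroid plexus RNA. With that score as a covariate neither call remained (0.16, adjusted p = 0.0512, and 0.16, adjusted p = 0.0583). Among the poor libraries the value was 0.24 against 82Q (adjusted p = 0.0163) and, with 1 WT library, 0.30 against WT. Among the rich ones, where 82Q_M120A has 1 library, the values were -0.024 against WT and -0.053 against 82Q.

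Nr1d1 ends within the neighbouring gene Thra, which encodes a thyroid hormone receptor on the opposite strand. The exons share 263 bases, 8.55% of those of Nr1d1, and the sources used here do not say whether counting used strand, so reads from these bases cannot be assigned. Thra itself averaged 289 ± 4.08 CPM in the WT libraries, 285 ± 16.6 in the 82Q libraries and 321 ± 16.3 in those of 82Q_M120A. It rose by 0.15 ± 0.04 against WT (adjusted p = 0.00738) and by 0.17 ± 0.04 against 82Q (adjusted p = 0.00599, edgeR quasi-likelihood), sizes close to those of Nr1d1. Other members share exonic bases with genes on the opposite strand too: Dbp shares 18.0% with Sphk2, Bhlhe41 19.0% with the predicted gene Gm43909, Cry2 4.67% with D930015M05Rik and Arntl 0.439% with Gm45355. Sphk2 and D930015M05Rik were not called in any comparison, and the other 2 did not pass the filter.

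Nr1d2 (chr14:18204054-18239127), which encodes the related repressor REV-ERBβ, did not follow Nr1d1. It was at 329, 310, 316, 324 and 303 CPM in WT, at 317, 314, 378, 343 and 323 CPM in 82Q and at 300.3, 322, 298, 303 and 296 CPM in 82Q_M120A. It fell by 0.14 ± 0.05 against 82Q (adjusted p = 0.0381, edgeR quasi-likelihood), with overlapping groups, and gave -0.06 ± 0.05 against WT (adjusted p = 0.338). Against 82Q the calls of both Nr1d genes were near the threshold. Leaving out 1 library ended the call of Nr1d2 for 82Q-3, 82Q-4, 82Q_M120A-1, 82Q_M120A-3, 82Q_M120A-4 or 82Q_M120A-5, with adjusted p up to 0.0779. It ended that of Nr1d1 for 82Q-1, 82Q-3, 82Q-5, 82Q_M120A-2 or 82Q_M120A-4, with adjusted p up to 0.0632. With only the 2 groups compared in the fit, neither was called (adjusted p = 0.0752 for Nr1d2 and 0.0555 for Nr1d1). Among the poor libraries Nr1d2 was not called against 82Q either (-0.18, adjusted p = 0.0909), and among the rich ones, with 1 library of 82Q_M120A, its value was -0.080.

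Dbp (chr7:45705088-45710203), an output of the loop known for one of its strongest rhythms, was at 75.4, 82.8, 72.5, 67.6 and 70.6 CPM in WT, at 68.3, 80.3, 71.6, 86.3 and 68.9 CPM in 82Q and at 72.9, 88.9, 80.1, 77.7 and 72.4 CPM in 82Q_M120A. The groups covered nearly the same range. The log2 fold change was 0.03 ± 0.07 for 82Q against WT (interval -0.13 to 0.18, adjusted p = 0.857), 0.09 ± 0.07 for 82Q_M120A against WT (interval -0.07 to 0.24, adjusted p = 0.381) and 0.06 ± 0.07 for 82Q_M120A against 82Q (interval -0.09 to 0.22, adjusted p = 0.609, edgeR quasi-likelihood). The highest library was 1.32 times the lowest.

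Bhlhe41 (chr6:145858243-145865558), also called Dec2, encodes a repressor that competes for E-boxes, and it showed the largest rise among the members. It was at 44.3, 45.3, 44.0, 49.5 and 47.4 CPM in WT, at 53.2, 53.7, 47.9, 54.6 and 48.2 CPM in 82Q and at 54.3, 65.8, 63.6, 57.9 and 68.0 CPM in 82Q_M120A. The 82Q_M120A libraries lay above all of WT, and 1 of them lay within the 82Q range. Against WT, where 2 of 10 members did not overlap beside 25.3% of tested genes, Bhlhe41 rose by 0.43 ± 0.06 on the log2 scale (1.34-fold, adjusted p = 2.01e-05). Against 82Q, where 1 of 10 did not overlap beside 12.1% of tested genes, it rose by 0.27 ± 0.06 (1.2-fold, adjusted p = 0.0039, edgeR quasi-likelihood). The 82Q mean lay between the others, 0.16 ± 0.06 above WT (adjusted p = 0.0663). That value was past the threshold without WT-4 (adjusted p = 0.0430), 82Q_M120A-1 (adjusted p = 0.0319) or 82Q_M120A-5 (adjusted p = 0.0448). With the choroid plexus score as a covariate both rises of 82Q_M120A were called (0.33, adjusted p = 0.000234, and 0.21, adjusted p = 0.00906). Against 82Q the value was 0.30 among the poor libraries (adjusted p = 0.0210), but only 0.096 among the rich ones, where 82Q_M120A has 1 library, the one with the lowest Bhlhe41 of its group. Among the rich libraries 82Q was called above WT (0.17, adjusted p = 0.0429).

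Bhlhe41 lies in a stretch of chromosome 6 where other genes also differed in 82Q_M120A. Of its 16 tested neighbours within 1 Mb, 10 were called against WT (62.5%, beside 36.4% of all tested genes), 9 against 82Q (56.25%, beside 18.9%) and 2 between 82Q and WT (12.5%, beside 18.7%). The gap from Bhlhe41 to Arntl2 (chr6:146796055-146833529), a close relative of Arntl, is 930 kb, and of the 16 tested neighbours of Arntl2, partly the same genes, 11 were called against WT and 10 against 82Q. Shares above that of all tested genes were also found elsewhere: against 82Q, 40% of 10 neighbours of Arntl, 38.5% of 26 of Cry2 and 31.25% of 48 of Nr1d1 were called, and around the other 6 members the share ran from 6.25% to 20%. Against WT the share around the members other than Bhlhe41 ran from 20% to 43.75%. The 82Q_M120A group is the one labelled a strain mix, and the part of the strain in the levels of Bhlhe41 and Arntl2 was not tested.

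Arntl2 had the largest change among 20 further clock genes. It was at 1.26, 1.15, 0.958, 1.03 and 1.28 CPM in WT, at 1.02, 1.43, 1.78, 1.07 and 1.24 CPM in 82Q and at 3.91, 3.86, 3.40, 2.88 and 3.93 CPM in 82Q_M120A, with no overlap. It rose by 1.67 ± 0.15 on the log2 scale against WT (3.17-fold, adjusted p = 7.99e-08) and by 1.45 ± 0.14 against 82Q (2.74-fold, adjusted p = 1.16e-06, edgeR quasi-likelihood).

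The 20 further genes hold the other activators, receptors that drive Arntl such as Rora and Rorb, the relatives of Dbp, and kinases and ubiquitin ligases that act on the PER and CRY proteins. In 82Q against WT 5 of them were called, 1 higher and 4 lower, beside 18.7% of all tested genes, with a median log2 fold change of -0.02 beside 0.01. In 82Q_M120A against WT 8 were called, 5 higher and 3 lower, beside 36.4%, with a median of 0.04 beside 0.01. In 82Q_M120A against 82Q 3 were called, all higher, beside 18.9%. These shares are near those of all genes, so the counts are no result about the list. Rora, which is also required for Purkinje cell development, fell from 453 ± 12.5 CPM in WT to 328 ± 25.0 in 82Q and to 311 ± 11.7 in 82Q_M120A, a log2 fold change of -0.47 ± 0.05 (adjusted p = 5.5e-07) and -0.54 ± 0.05 (adjusted p = 4.92e-08, edgeR quasi-likelihood). Its 82Q libraries, at 297 to 363 CPM, and its 82Q_M120A libraries, at 297 to 325 CPM, did not overlap with WT at 435 to 470 CPM.

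Rorb, a related receptor gene, rose from 9.41 ± 0.457 CPM in WT to 11.6 ± 1.21 in 82Q (0.31 ± 0.07, adjusted p = 0.00578). The receptors encoded by Rora and Rorb activate Arntl and the NR1D proteins repress it through the same sites, and Arntl was not called in any of these comparisons.

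Fbxl21, which encodes a ubiquitin ligase subunit for the CRY proteins, fell by 0.47 ± 0.08 in 82Q (adjusted p = 0.000215) and by 0.35 ± 0.08 in 82Q_M120A (adjusted p = 0.00144) against WT. Wee1, a cell cycle kinase gene under clock control, fell by 0.11 ± 0.03 (adjusted p = 0.0337) and 0.20 ± 0.03 (adjusted p = 0.00015) in the same comparisons. The call of Wee1 in 82Q ended without WT-1, WT-4, WT-5, 82Q-2 or 82Q-5 (adjusted p up to 0.0815), with no low-count filter (adjusted p = 0.0583) and among the rich libraries (adjusted p = 0.119), while with the choroid plexus score as a covariate Wee1 was also called lower in 82Q_M120A against 82Q (-0.11, adjusted p = 0.0341). Npas2, the partner of Arntl, rose by 0.31 ± 0.10 in 82Q_M120A against WT (adjusted p = 0.0197), as did Bhlhe40, the relative of Bhlhe41 (0.20 ± 0.07, adjusted p = 0.0375), Fbxw11 (0.27 ± 0.05, adjusted p = 0.00056) and Timeless (0.33 ± 0.05, adjusted p = 9.02e-05, edgeR quasi-likelihood). With the score as a covariate Npas2 (0.30, adjusted p = 0.0549) and Bhlhe40 (0.11, adjusted p = 0.283) were not called, and Hlf was called lower (-0.16, adjusted p = 0.0168). The call of Npas2 also ended without WT-1 (adjusted p = 0.0607), and that of Bhlhe40 without WT-1, WT-2, WT-3, WT-5, 82Q_M120A-2, 82Q_M120A-4 or 82Q_M120A-5 (adjusted p up to 0.0850). Npas2 was called higher in 82Q than in WT among the rich libraries (0.48, adjusted p = 0.00579), and Bhlhe40 higher in 82Q_M120A than in 82Q among the poor ones (0.20, adjusted p = 0.0472). In sets with 1 library in a group, 82Q_M120A against WT gave 0.036 for Npas2 (poor), 0.0062 for Bhlhe40 (rich), -0.15 for Fbxl21 (rich) and -0.46 for Ciart (rich). In the main test Clock, Ciart, Tef, Hlf, Nfil3, Usp2, Csnk1d, Csnk1e and Btrc were not called in any comparison. Scaling by library size alone moved the median of all genes by 0.05 in both comparisons with WT. In 82Q against WT 9 further clock genes were then called, 6 of them higher. Over all tested genes that scaling called 4197, 3063 of them higher, beside 3142 and 1451 in the main test. Higher calls thus rose over all genes too, so the count of 9 is no result about the list.

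**Figure D3:**
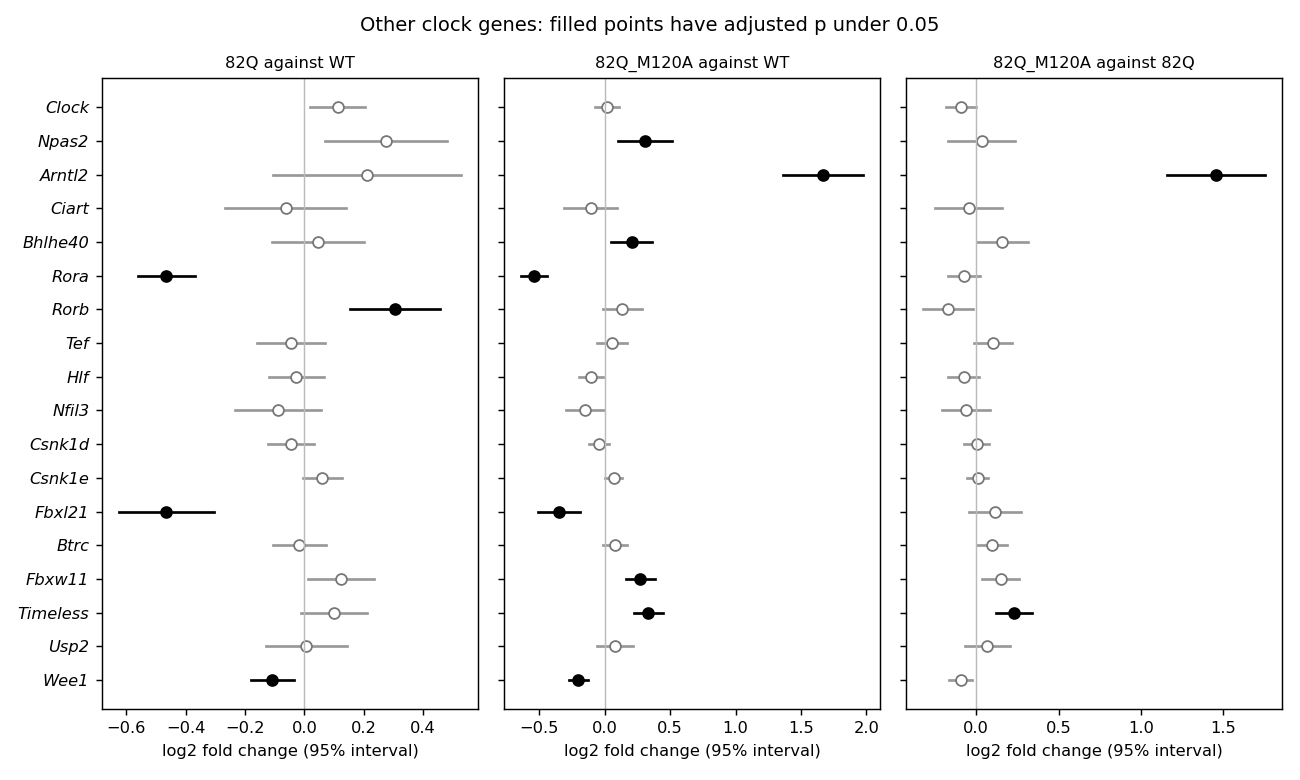
Log2 fold change with its 95% interval (horizontal axes, each with its own range) of 18 further clock genes (vertical axis) in the 3 comparisons; filled points have an adjusted p under 0.05 (edgeR quasi-likelihood). Rora is at -0.47 in 82Q and -0.54 in 82Q_M120A against WT. Arntl2 in 82Q_M120A is at 1.67 against WT and 1.45 against 82Q, and is unfilled in 82Q against WT (0.21). Clock, Tef, Hlf and Usp2 are unfilled throughout.

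Grouped by the known time of their peak, the day and the end of night genes did not split in opposite directions between groups. In 82Q against WT none of the 10 day to early evening genes (Nr1d1, Nr1d2, Dbp, Per1, Per3, Ciart, Tef, Hlf, Bhlhe41 and Usp2) was called, nor any of the 4 genes of the end of night (Arntl, Npas2, Clock and Nfil3), beside 18.7% of all tested genes. The median log2 fold changes of these sets were 0.01 and 0.01. In 82Q_M120A against WT, 2 of the 10 day genes (Nr1d1, Bhlhe41) and 1 of the 4 night genes (Npas2) were called, all 3 higher, beside 18.6% of all tested genes. Per2, whose peak comes slightly after the day genes, was called lower, beside 17.8% of all tested genes. Of the 10 day genes 5 had positive and 5 negative values, with a median of -0.0007, and of the 4 night genes 2 and 2, with a median of 0.01. In 82Q_M120A against 82Q, 2 day genes were called higher and 1 (Nr1d2) lower, beside 10.3% and 8.63% of all tested genes, and no night gene was called. Per2 and Cry2, which peak slightly later, were both lower in 82Q_M120A, with a median of -0.29 against WT and -0.27 against 82Q. Cry1, which peaks in the night and is in neither set, was at -0.11 and -0.10. Among them only Per2 was called in the main test. With the choroid plexus score as a covariate Cry1 and Cry2 were also called lower against WT. The counts of calls describe the groups and, with so few genes in a set, are no result about the sets. They do not bound a difference in collection time, which no label gives.

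Within groups, single libraries did show opposite deviations of the 2 sets. Library 82Q_M120A-1 had 10 of 10 day genes below its group mean of log2 CPM and 4 of 4 night genes above it. Library 82Q_M120A-2 had 10 of 10 day genes above and 4 of 4 night genes below. The deviations from the group mean in these libraries were -0.33 and 0.16 for Per3, -0.28 and 0.32 for Per1, -0.19 and 0.10 for Nr1d1, -0.19 and 0.09 for Bhlhe41, -0.10 and 0.19 for Dbp, and 0.17 and -0.18 for Arntl. Library 82Q_M120A-1 thereby held the lowest Per1, Per2, Per3 and Cry2 and the highest Arntl of all 15 libraries. Each group mean includes the library itself, so a library far to one side places others on the opposite side. The mirrored deviations of 82Q_M120A-1 and 82Q_M120A-2 are therefore not independent. The share of all tested genes on each side of the group mean was not computed for any library.

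In 82Q some libraries showed such opposition and another did not. Library 82Q-4 had 9 of 10 day genes above and 4 of 4 night genes below its group mean, and library 82Q-5 had 8 of 10 day genes below and 4 of 4 night genes above. Library 82Q-1 had 9 of 10 day genes below with 3 of 4 night genes also below. In WT no library had more than 8 of 10 day genes on one side: WT-1 had 8 above and WT-5 had 8 below, each with 2 of 4 night genes above, while WT-2 had 6 day genes and all 4 night genes below. Libraries 82Q_M120A-1 and 82Q-5 are rich in choroid plexus RNA (2075 and 2112 CPM) and libraries 82Q_M120A-2 and 82Q-4 are poor in it (23.0 and 88.8 CPM). The part of that RNA in these deviations was not tested. Over the 7 rich libraries 0 to 8 of 10 day genes were above the group mean, and over the 8 poor ones 1 to 10.

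**Figure D4:**
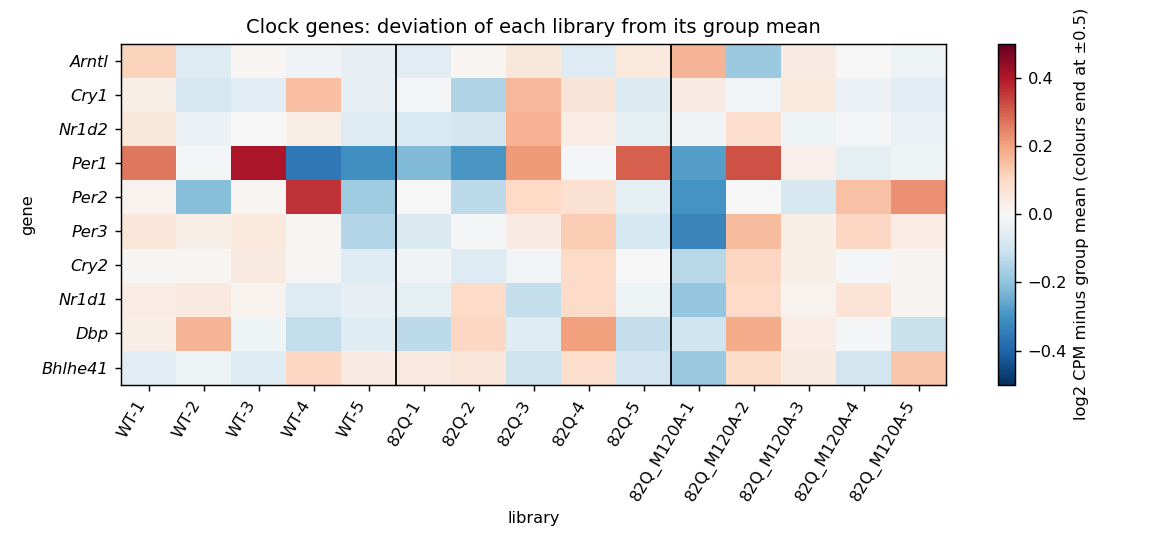
Deviation of each library (horizontal axis) from its group mean of log2 CPM for each clock gene (vertical axis), blue below and red above, with colours ending at ±0.5 and black lines between the groups. Library 82Q_M120A-1 is red for Arntl (0.17) and blue for Per1 (-0.28), Per2 (-0.30), Per3 (-0.33), Cry2 (-0.14), Nr1d1 (-0.19) and Bhlhe41 (-0.19), and library 82Q_M120A-2 shows the reverse for Arntl (-0.18), Per1 (0.32), Per3 (0.16) and Dbp (0.19).

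The members were also compared pair by pair over the 15 deviations, with group means removed and permutations of libraries within groups. Of 45 pairs, 30 had a positive and 15 a negative Pearson correlation, and 0 had an adjusted permutation p under 0.05 for Pearson's r. Nr1d1 and Dbp, both E-box outputs of the day, went together (r = 0.74, permutation p = 0.0065, adjusted 0.100; rho = 0.84, permutation p = 0.00094, adjusted 0.0423), and r was 0.86 without 82Q_M120A-1 and 82Q-3. Per3 and Cry2 had the highest r, 0.86 (permutation p = 0.00195, adjusted 0.0877; rho = 0.75, adjusted 0.0732), and 0.69 without 82Q_M120A-1 and WT-5.

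Arntl was opposite to Bhlhe41 (r = -0.70, permutation p = 0.0134, adjusted 0.100; rho = -0.69, adjusted 0.114), with r = -0.55 without 82Q_M120A-1 and 82Q_M120A-2. Its correlation with Nr1d1 was -0.59 (permutation p = 0.0697, adjusted 0.197; rho = -0.49, adjusted 0.286) and became -0.16 without the same libraries, so that relation rests on them. The same holds for Arntl and Cry2 (r = -0.64, permutation p = 0.0484, adjusted 0.197; rho = -0.40, adjusted 0.415), which became -0.10. Per2 and Dbp had r = -0.24.

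Among the genes at 1 CPM or more, ranked by Pearson r of these deviations as a description, Nr1d1 stood in place 54 of 14013 for likeness to Dbp, Per3 in place 467 (r = 0.57), Cry2 in place 642 (r = 0.53) and Tef, a relative of Dbp, in place 673 (r = 0.52). Other day genes stood further from the top, Bhlhe41 in place 3271, Per1 in place 3353, Hlf in place 4030 and Nr1d2 in place 4359. Npas2 stood in place 152 from the lowest (r = -0.64). The named genes most like Dbp, predicted models left out, were Adck3 (r = 0.86), Igsf21 (0.86), Cdon (0.85), Pitpnm3 (0.85) and Top3b (0.84), and the least like were Ranbp6 (-0.89), Abhd3 (-0.88) and St13 (-0.86). For Arntl, Clock stood in place 57 from the top (r = 0.70), and Bhlhe41, Tef (-0.65), Ciart (-0.65) and Cry2 stood in places 135, 291, 311 and 350 from the lowest, while Nr1d2 and Per1 were near the middle, in places 6790 and 7529 from the top. The most like Arntl were Cmss1 (0.88) and Tcea1 (0.88), and the least like Efhd2 (-0.92) and Tmem51 (-0.86). The points share library preparation and depth.

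In a fit of each gene's slope on Dbp with group as a factor, 0 of 16807 genes were called (edgeR quasi-likelihood, Benjamini-Hochberg adjustment), and 1054 genes, 6.27%, had an unadjusted p under 0.05. The smallest adjusted p was 0.406, for Igsf21, and limma-voom also called 0. The spread of Dbp within groups was small, with a coefficient of variation of 7.87% in WT, 10.5% in 82Q and 8.58% in 82Q_M120A. Over the members the median coefficient of variation was 5.32% in WT, 6.43% in 82Q and 8.67% in 82Q_M120A, beside 4.49%, 5.45% and 5.70% over all genes at 1 CPM or more.

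Per1 varied between libraries together with some immediate early genes, a class that neurons switch on within minutes of activity or handling. Over the 15 deviations, 5 of 12 such genes had an adjusted permutation p under 0.05 for Pearson's r with Per1 and 4 for rho. This test was run on the 12 genes only. The share among all tested genes is not known, so the count is no result about the class. Per1 went with Nr4a1 (r = 0.89, permutation p = 4e-05, adjusted 0.00048; rho = 0.90, adjusted 0.0018) and with Fos (r = 0.86, permutation p = 0.00022, adjusted 0.00132; rho = 0.87, adjusted 0.00186). Without WT-3 and WT-4 these were 0.88 and 0.80. Btg2 (r = 0.82, permutation p = 0.00159, adjusted 0.00636) and Dusp1 (r = 0.70, permutation p = 0.00438, adjusted 0.0131) followed, with rho of 0.84 (adjusted 0.00612) and 0.68 (adjusted 0.0209) and r of 0.74 and 0.68 without those libraries. Sik1 passed for r (0.68, permutation p = 0.00881, adjusted 0.0211) but not for rho (0.57, adjusted 0.107), and had r = 0.51 without them. Ier2 (r = 0.55), Fosb (0.45), Npas4 (0.41), Egr2 (0.17) and Junb (0.090) did not pass. Egr1 (r = -0.24, adjusted permutation p = 0.477) and Arc (r = -0.53, adjusted permutation p = 0.153) had negative values and did not pass. In the slope fit on Per1, 8 of 16807 genes were called, among them Nr4a1 with a slope of 1.24 ± 0.17 log2 units per log2 unit of Per1 (adjusted p = 0.0110, edgeR quasi-likelihood).

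The library with the highest Fos in each group was also the one with the highest Per1. In WT that was WT-3, with 45.6 CPM of Fos beside 11.3 to 23.4 in the others. In 82Q it was 82Q-5, with 33.1 CPM beside 6.46 to 14.2. In 82Q_M120A it was 82Q_M120A-2, with 14.3 CPM beside 4.40 to 6.38. The deviation of Per1 was 0.41, 0.30 and 0.32 in these libraries. Between groups, Fos fell by 1.70 ± 0.55 on the log2 scale in 82Q_M120A against WT (adjusted p = 0.0282), Nr4a1 fell by 1.07 ± 0.24 (adjusted p = 0.00353) and Npas4 fell by 1.46 ± 0.31 (adjusted p = 0.0018), while Btg2 rose by 0.70 ± 0.08 (adjusted p = 4.98e-06, edgeR quasi-likelihood). Arc was also called higher, at 21.8 ± 2.97 CPM in WT and 30.0 ± 0.785 in 82Q_M120A. In that comparison the call of Fos ended in 5 of 15 fits with a library left out (-2.13 to -1.28, adjusted p up to 0.0830, edgeR quasi-likelihood). The calls of Nr4a1, Npas4, Btg2 and Arc held in all of them, with Arc at 0.39 to 0.53 (adjusted p up to 0.00444, edgeR quasi-likelihood). In all, 7 of the 12 immediate early genes were called in that comparison, 3 higher and 4 lower, beside 36.4% of all tested genes (median log2 fold change -0.17 beside 0.01), and with the choroid plexus score as a covariate 4 were, Fos not among them.

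**Figure D5:**
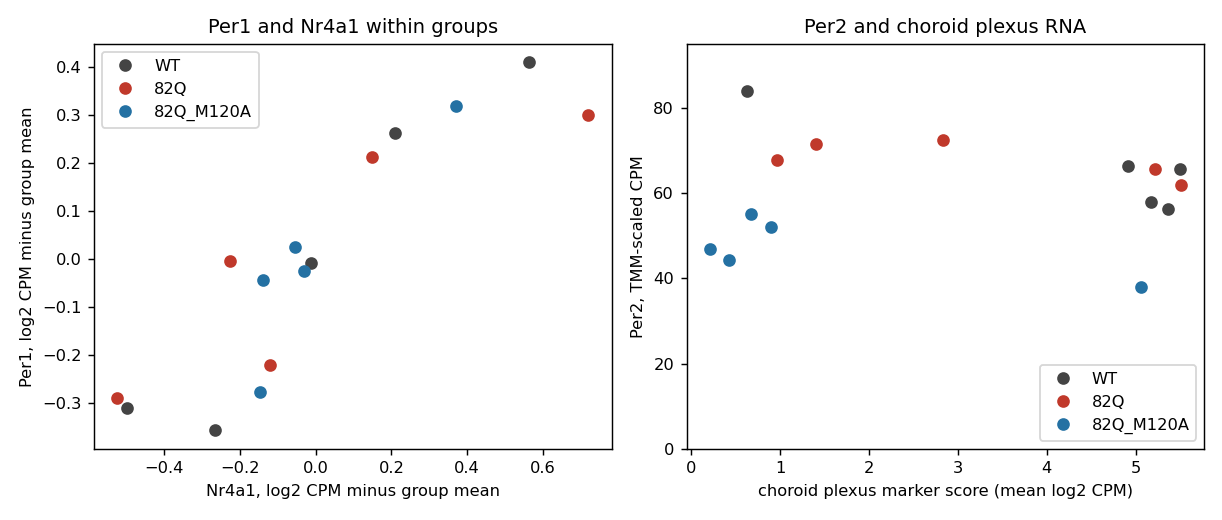
Left, deviation of Per1 (vertical axis) against that of Nr4a1 (horizontal axis), both in log2 CPM minus the group mean, with 1 point per library coloured by group; the points rise together (r = 0.89, n = 15). Right, Per2 in TMM-scaled CPM (vertical axis, from 0) against the choroid plexus marker score in mean log2 CPM (horizontal axis). The 82Q_M120A points (38.1 to 55.0 CPM) lie below the others, but 82Q_M120A has only 1 library above a score of 4 and WT only 1 below it.

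Genes that respond to glucocorticoids, hormones that rise and fall daily and with stress, were examined beside the clock because they reset it in many tissues. Of 10 such genes, 6 were called in 82Q against WT, all higher, beside 8.63% of all tested genes (median log2 fold change 0.35 beside 0.01), among them the metallothionein genes Mt2 (0.59 ± 0.15, adjusted p = 0.0120) and Mt1 (0.50 ± 0.13, adjusted p = 0.0128), Sult1a1 (0.35 ± 0.09, adjusted p = 0.0138) and Tsc22d3 (0.26 ± 0.07, adjusted p = 0.0139). Glial markers moved in the same comparison: 8 of 8 microglial markers were higher (median 0.68, with a sum of 121 to 135 CPM in WT and 195 to 207 CPM in 82Q), as were 6 of 8 of oligodendrocytes (median 0.28, 4972 to 5996 and 6110 to 7402 CPM). Of 8 astrocyte markers 3 were higher, Gfap by 1.43, and 2 lower (5305 to 5749 and 4532 to 4675 CPM). None of these markers was at 0 in all libraries, and their part in the glucocorticoid genes was not tested. In 82Q_M120A against 82Q, 4 of the 10 genes were called, all lower, beside 8.63% of all tested genes: Pdk4 (-0.98 ± 0.14, adjusted p = 0.000211), Tsc22d3 (-0.37 ± 0.07, adjusted p = 0.00126), Errfi1 (-0.26 ± 0.05, adjusted p = 0.00134) and the kinase gene Sgk1 (-0.44 ± 0.10, adjusted p = 0.00555, edgeR quasi-likelihood). In 82Q_M120A against WT 2 were higher and 2 lower, beside 18.6% and 17.8% of all tested genes, so that count is no result about the list. Among libraries rich in choroid plexus RNA alone, 2 were called in 82Q against WT. Per1 and Per2 are known targets of these hormones too, and of the pair only Per2 in the comparisons of 82Q_M120A passed the test.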

How the data were processed

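The authors deposited one table of read counts per gene, as whole numbers, for 15 libraries of cerebellar RNA. The submitters' processing notes list HISAT2 2.0.1, Subread with featureCounts, CASAVA 1.8, DESeq2 1.14.1 and R 3.3.3, and the build mm10. The sources used here do not state the gene annotation or whether counting used strand. Columns were mapped to groups by name, and no column was left out.

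Counts were analysed in R 4.3.3 with edgeR 4.0.16 and limma 3.58.1: TMM factors, filterByExpr by group (16808 genes kept, 7612 not tested), and a robust quasi-likelihood fit over the 15 libraries in which group was the single factor. The tests were two-sided, with Benjamini-Hochberg adjustment over all tested genes and a threshold of 0.05. An approximate standard error was taken as the size of the log2 fold change over the root of its F statistic. Log2 CPM used a prior count of 2. Correlations used 100000 permutations within groups, with adjustment over the 45 pairs or the 12 immediate early genes. Both fits were tested on simulated data. The group fit, for 82Q against WT, called 39.0% of genes changed 1.2-fold, 80.5% of those changed 1.5-fold and 85.9% of those changed 2-fold. The slope fit called 50% of genes given a slope of 1 on Dbp. A gene that was not called may therefore still differ by a small amount.

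All 10 clock genes were named, further clock genes by role (2 of the 20 are not reported here, but are in the counts), and of the 10 glucocorticoid-responsive and 12 immediate early genes up to 4 called per comparison; genes shown for their relation to Per1 follow from the values. Genes most like Dbp and Arntl come from the 10 highest and 10 lowest correlations. The members, the lists and the sets by peak time were chosen with earlier results of these data known. Alternatives were limma-voom, DESeq2 1.42.0, library size only, RLE factors, a mean of at least 1 CPM or no filter, only the groups compared, the choroid plexus score as a covariate, and each library left out. Libraries rich or poor in choroid plexus RNA, and other members in place of Dbp, were added after seeing the data. Coordinates and exon overlaps are from GENCODE M21 on mm10, and promoters from RefSeq on GRCm38.p6.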

Additional observations from a re-analysis of the deposited data

Results flagged for a closer look

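In 90 groups of 5 libraries checked, the 10 members and 20 further clock genes in each of the 3 groups, 3 libraries stood apart from the others of their group, where chance alone gives about 1 in 20 groups, or 4.5. The level of Per3 in 82Q_M120A-1 was 72.1 CPM, far below the next lowest library at 92.9 CPM. This library also held the lowest Per1, Per2 and Cry2 and the highest Arntl of all 15 libraries, and it is the one of its group that is rich in choroid plexus RNA. The level of Per3 in WT-5, the shallowest library at 38.3 M counts (M, mega), was 86.4 CPM, below the next lowest at 96.1 CPM. The level of Nr1d2 in 82Q_M120A-2 was 322 CPM, above the next highest at 303 CPM. In that library all 10 day genes were above the group mean.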

How the results depend on the processing

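Over 25 alternatives and 3 comparisons, 704 of 750 values of the clock members kept their side of the threshold, and their direction where called, 18 lost a call, 26 gained one and 2 reversed. Both reversals were of Nr1d1 among the libraries rich in choroid plexus RNA, -0.024 against WT and -0.053 against 82Q, where 82Q_M120A has 1 library; the cause was not tested. The count of members called in 82Q against WT, 0 in the main test, was 2 with library size only, 2 with only the 2 groups compared and 1 among rich libraries, and 0 to 2 with one library left out: 1 without WT-4, 2 without 82Q_M120A-1 and 1 without 82Q_M120A-5. In 82Q_M120A against 82Q it was 2 with only the 2 groups compared and 2 to 5 with one library left out, with the 2 reached without 82Q-3 or without 82Q_M120A-4. For the 20 further clock genes the count in 82Q_M120A against 82Q, 3 in the main test, was 5 with DESeq2, 5 with library size only and 3 to 6 with one library left out, the 6 without 82Q_M120A-1 and 5 without 82Q_M120A-2. In 82Q against WT their count of 5 became 9 with library size only and 2 among poor libraries. In 82Q_M120A against WT their count of 8 became 4 among poor libraries. These rich and poor sets hold fewer samples, with 1 library in a group in all comparisons but 82Q against WT (rich) and 82Q_M120A against 82Q (poor), so that lone library is assumed to vary like the others. With another member in place of Dbp the number of genes whose slope was called was 1 for Arntl, 8 for Per1, 142 for Per2, 14 for Cry1, 330 for Nr1d2 and 9 for Bhlhe41, and 0 for Per3, Cry2 and Nr1d1; leaving out any library for Dbp gave 0. Over all tested genes the calls in 82Q_M120A against WT, 6118 in the main test, were 4019 among rich and 1891 among poor libraries, those in 82Q_M120A against 82Q, 3175, were 1709 and 1440, and those in 82Q against WT, 3142, were 636 among poor libraries. Of the 10 glucocorticoid-responsive genes, the 6 called in 82Q against WT became 2 among rich and 0 among poor libraries, the 4 in 82Q_M120A against WT became 2 with the choroid plexus score, 1 and 0 among rich and poor libraries, and 2 without WT-1 or without 82Q_M120A-2, and the 4 in 82Q_M120A against 82Q became 1 among rich libraries. Of the 12 immediate early genes, the 7 in 82Q_M120A against WT became 4 with the choroid plexus score and 2 and 3 among rich and poor libraries. The 4 in 82Q_M120A against 82Q became 2 with limma-voom, with that score, among poor libraries, and without 82Q-3, 82Q-5, 82Q_M120A-4 or 82Q_M120A-5, and 0 among rich libraries, and the 2 in 82Q against WT became 1 with only the 2 groups compared and among poor libraries.

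No paired analysis was possible because the columns of the count table carry the group but no replicate number. Depth limits the members little, with at least 1474 counts of each in every library; the number of libraries, 5 a group, and their spread set the width of the intervals.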
